A study of Mus musculus with 25 samples.

Results

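The genes described here are 40 genes of DNA replication and mitosis, chosen by name and found on the array through the gene symbols of the authors' tables. All 40 were represented, by 78 probes, among 20005 genes with a symbol. They fall into licensing factors and the replicative helicase (9 genes), the fork and nucleotide supply (5), transcription factors of the cycle (2), cyclins and partners of cyclin-dependent kinases (7), mitotic kinases, checkpoint and anaphase-promoting complex genes (7), spindle and cytokinesis genes (6), and genes of chromosome structure and the passenger complex (4).

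A cell licenses its origins by loading the MCM2-7 helicase in G1, copies its DNA in S phase, and separates the copies in mitosis under the control of cyclin-dependent, Polo-like and Aurora kinases and the anaphase-promoting complex. Transcription of these genes is periodic. E2F factors drive many replication genes at the G1/S border, while the DREAM and MuvB complexes act on mitotic genes through a promoter element called the CHR, often beside CCAAT boxes bound by NF-Y. Most hepatocytes of an adult liver are quiescent, and the liver is known for re-entering the cycle after loss of tissue and in tumours.

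Livers of mice of C57BL/6J x 129Sv background, injected with a mutant form of PIK3CA or with an empty vector, were measured on 25 Illumina bead arrays, 1 per sample. The PIK3CA product, p110 alpha, is a catalytic subunit of phosphoinositide 3-kinase, and H1047R and E545K are activating mutations found in human cancers. The groups were E545K liver tumours of 5 months (5 arrays), E545K preneoplastic liver of 3 months (5), H1047R preneoplastic liver of 3 months (4), 1 H1047R preneoplastic liver of 6 months and 1 H1047R tumour of 12 months. Mice given the empty vector supplied normal livers at 6 months (5) and at 3 months (4). The study's design text compares the tumours with controls of 5 months, which were not analysed here, so both ages of control are shown. The sources used here give neither what drives PIK3CA nor how it was injected, and no label says whether arrays stand for separate animals. The p-values therefore describe only the spread among these samples, which may be technical. Values below are quantile-normalized signals on a log2 scale after background correction, and a probe was called detected on an array at a detection p-value under 0.05. Signals of different probes cannot be ranked against each other.

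Each array had 14536 to 18391 detected probes. The mean log2 signal of 8 hepatocyte markers lay between 10.3 and 11.2 in all samples, although Tat was not detected in either late H1047R sample and Fgb not in that of 6 months. In E545K tumours 4 and 5, 7 of the 8 were detected. Skeletal muscle markers, which do not belong in liver, averaged a log2 signal of 5.06 to 10.7 in the 3-month controls, highest in control 4. They averaged 9.90 in H1047R 3-month liver 2, 5.94 in H1047R 3-month liver 4 and 6.77 in 6-month control 4, and none of the 5 was detected in any E545K tumour. Their part in the results was not tested, but counts without some of these libraries are given beside the results they touch.

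The promoters of members that differed in the tumours (below) are shown first, because such genes are known to share promoter elements. Windows of 300 bases, from 250 before to 50 after the annotated start, were taken from RefSeq on GRCm38.p6 and found for 31 of the 40 members. Capitals mark the CHR letters TTTGAA and the NF-Y letters CCAAT, each on either strand, in the first 3 windows. A match on the opposite strand reads TTCAAA or ATTGG. In Mcm6 they mark NF-Y letters and E2F-type letters. The windows lie at chr14:46760291-46760590 (plus strand) for Cdkn3, chr7:135716330-135716629 (minus strand) for Mki67, chr7:80294201-80294500 (plus strand) for Prc1 and chr1:128359656-128359955 (minus strand) for Mcm6, and each is printed 5′ to 3′ on the strand of its gene.
Cdkn3: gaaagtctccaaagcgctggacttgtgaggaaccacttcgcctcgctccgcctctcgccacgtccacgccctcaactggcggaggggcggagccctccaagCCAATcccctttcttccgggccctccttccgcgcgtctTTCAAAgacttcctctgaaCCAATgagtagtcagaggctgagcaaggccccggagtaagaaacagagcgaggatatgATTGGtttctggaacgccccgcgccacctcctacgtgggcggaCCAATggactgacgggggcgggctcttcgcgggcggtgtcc
Mki67: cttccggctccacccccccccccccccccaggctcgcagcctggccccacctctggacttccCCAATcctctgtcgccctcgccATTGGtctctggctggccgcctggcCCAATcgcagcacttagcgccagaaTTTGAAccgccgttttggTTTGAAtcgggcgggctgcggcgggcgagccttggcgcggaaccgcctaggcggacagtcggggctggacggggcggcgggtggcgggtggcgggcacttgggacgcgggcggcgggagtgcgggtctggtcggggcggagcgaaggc
Prc1: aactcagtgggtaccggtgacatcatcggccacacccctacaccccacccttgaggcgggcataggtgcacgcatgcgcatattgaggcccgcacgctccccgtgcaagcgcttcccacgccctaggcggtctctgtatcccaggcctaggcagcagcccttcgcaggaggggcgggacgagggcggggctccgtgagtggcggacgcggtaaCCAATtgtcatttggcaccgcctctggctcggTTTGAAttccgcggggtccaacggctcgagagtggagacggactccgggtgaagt
Mcm6: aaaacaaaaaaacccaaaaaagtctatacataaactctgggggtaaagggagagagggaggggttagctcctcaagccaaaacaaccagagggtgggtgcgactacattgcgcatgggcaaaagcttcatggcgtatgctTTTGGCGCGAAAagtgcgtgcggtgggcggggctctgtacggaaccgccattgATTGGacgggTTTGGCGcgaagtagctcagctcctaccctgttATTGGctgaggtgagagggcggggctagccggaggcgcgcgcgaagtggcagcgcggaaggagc

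Cdkn3, Mki67 and Prc1 were the members of smallest p against the 3-month controls whose window held a motif, and Mcm6, which did not pass there, was added after its values were seen as an example of a replication gene. The letters searched for the CHR were TTTGAA, or instead the form TTCGAA, and those for NF-Y were CCAAT. The E2F-type letters were TTTCGCG, alternatively the form TTTGGCG, or as the last form TTCCCGC. Both strands were searched, overlapping matches counted separately (2 E2F-type matches overlap in Mcm6 and form 1 run of capitals), and the first window was used where a gene had more than 1. A CHR match was held by 13 of the 18 windows of cyclin, mitosis, spindle and chromosome genes and by 2 of the 12 windows of licensing, fork and nucleotide genes. E2F-type letters were held by 0 of those 18 windows and by 7 of those 12, namely Cdt1, Cdc6, Mcm3, Mcm5, Mcm6, Mcm7 and Rrm1. Of all 32851 promoter windows, 19.2% held a CHR match, 37.4% a CCAAT box and 6.72% an E2F-type match, against 48.4%, 74.2% and 22.6% of the members' windows. These matches are letters in a window and not measured binding. Of the 8 members called higher in the tumours against 3-month controls, Cdkn3, Mki67, Prc1 and Mcm2 held both a CHR match and a CCAAT box, and Tyms, Ccne1, Nusap1 and Birc5 held none of the letters searched.

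Many members were near background, and the E545K tumours had more of them above it. In the 5 tumours 24 to 30 of the 40 members were detected (median 30), against 19 to 22 in E545K livers of 3 months, 14 to 20 in 6-month controls and 17 to 23 in 3-month controls. The lowest tumour stood above the highest array of each of these groups. Among all genes with a symbol the detected share was 50.4% to 52.9% in the tumours and 44.4% to 48.9% in those 3 groups. H1047R livers of 3 months had 19 to 23 members detected, the H1047R liver of 6 months had 22 and the H1047R tumour of 12 months 31.

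**Figure D1:**
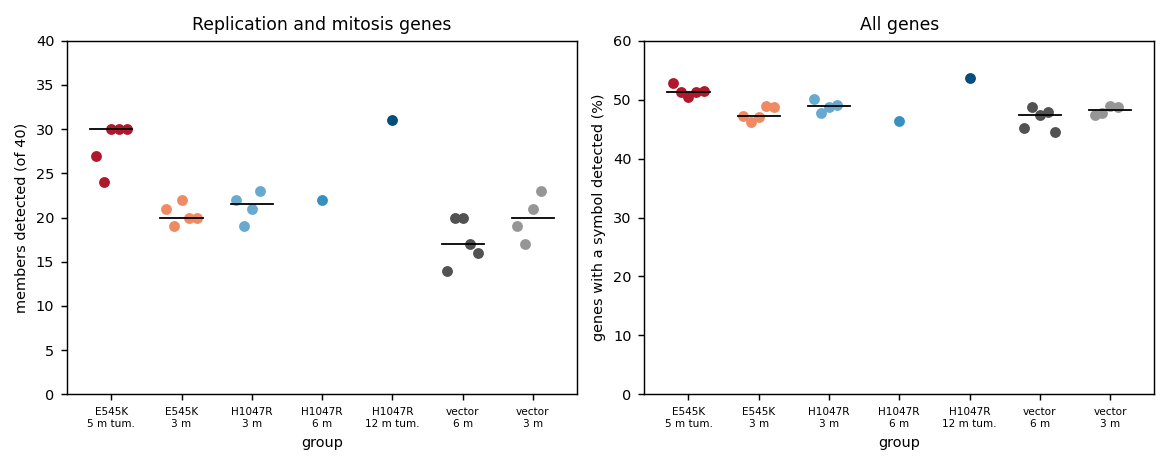
Number of the 40 replication and mitosis genes detected on each array (left) and percent of all genes with a symbol detected (right), by group; 1 point per array, with a line at the median of groups of 4 or 5. The 5 E545K tumours (24 to 30 members) and the H1047R tumour of 12 months (31) lie above every other array, the highest of which has 23.

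Ccne2, Ccna2, Ccnb2, Cks2, Ube2c, Tpx2 and Kif20a were detected on none of the 25 arrays, and Bub1 on 1, a 6-month control. These 8 genes include the S-phase and mitotic cyclins A2, B2 and E2, the ubiquitin-conjugating enzyme of the anaphase-promoting complex and the Aurora A activator Tpx2, and their signals give no level to compare. The other 32 members passed the filter of detection on at least 4 arrays. For 8 of them, Cdc6, Mcm3, Ccnb1, Aurkb, Kif11, Stmn1, Top2a and Mki67, fewer than 4 such arrays lay outside the E545K tumours. These depended on tumour arrays to pass, so counts over the 32 are set beside counts over all 40 without the filter.

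**Figure D2:**
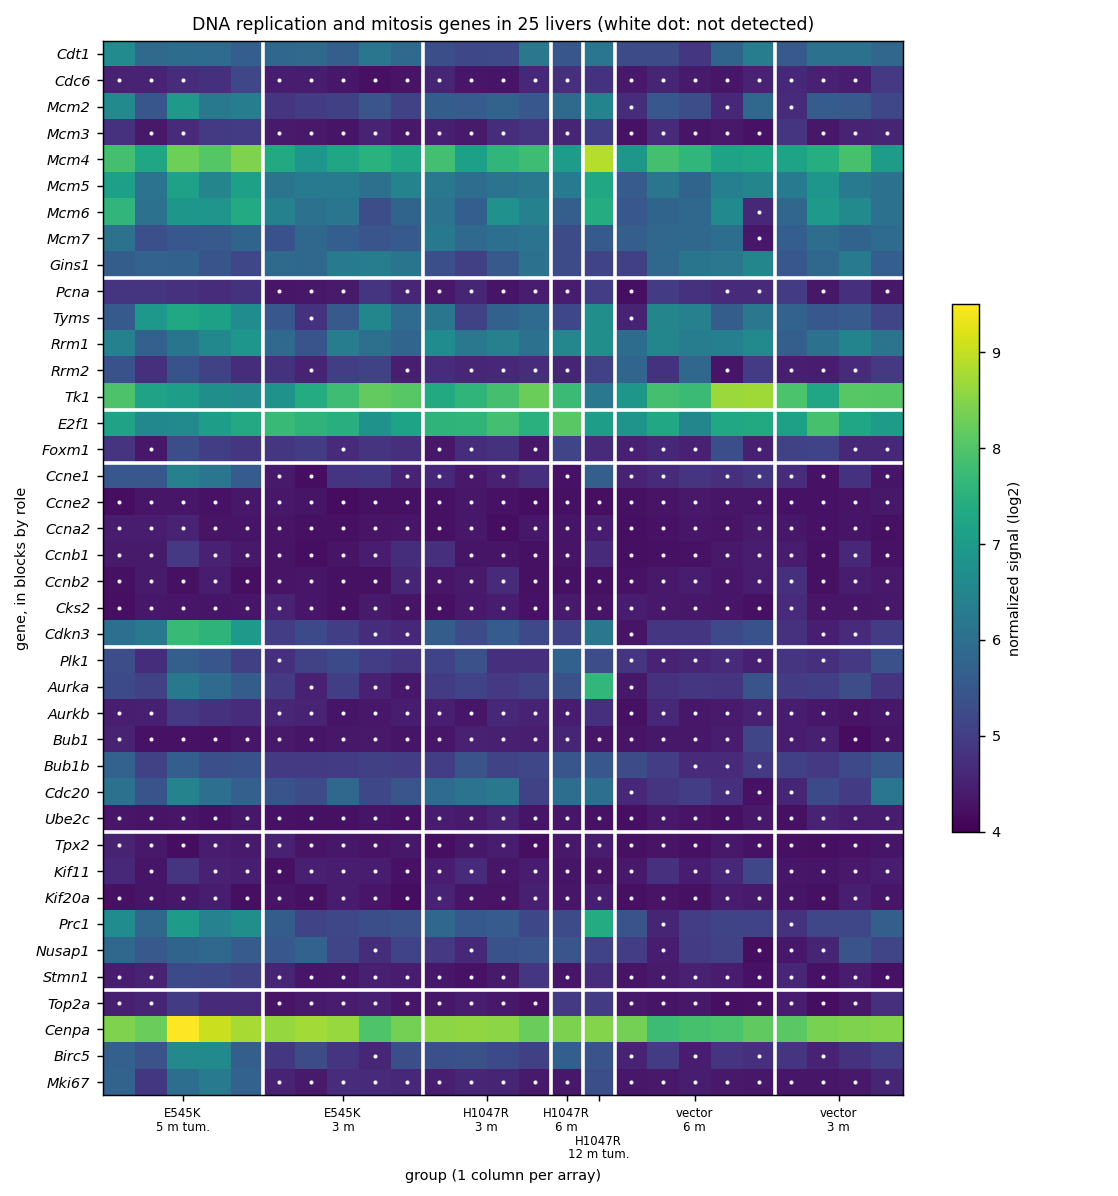
Normalized signal (log2, colour) of the 40 genes in rows, in blocks by role, and the 25 arrays in columns by group; a white dot marks an array on which the gene was not detected. Mki67 has no dot in the 5 E545K tumours and the H1047R tumour of 12 months and a dot on every other array, while rows such as Ube2c and Tpx2 have a dot on all 25.

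The first comparison asks how E545K tumours differ from normal liver. Against the 3-month controls 8 of the 32 tested members rose and none fell (limma, Benjamini-Hochberg adjusted p under 0.05 over 11594 genes). The 25% of members that rose stands beside 19.5% of all genes tested that rose, 21% that fell and 40.4% that changed either way, so it is close to the background. In 7 of the members (21.9%) every tumour lay above every 3-month control, beside 14.4% of all genes. An unadjusted p under 0.05 was found for 15 of the 32 members, beside 49.1% of all genes. The members that rose were Cdkn3, Ccne1, Mki67, Prc1, Birc5, Tyms, Nusap1 and Mcm2. The median difference was 0.36 on the log2 scale over the tested members and -0.03 over all genes tested. Without the filter the same 8 rose among all 40 members, beside 10% of 20005 genes, and the median over the 40 was 0.25. Against the 6-month controls 11 members rose and none fell, 34.4% of members beside 11% of all genes tested that rose, 8.93% that fell and 19.9% that changed either way. In 8 members (25%) the tumours lay wholly above these controls, beside 8.29% of all genes. An unadjusted p under 0.05 was found for 19 of the 32 members, beside 33.5% of all genes. The 11 that rose were Prc1, Mki67, Cdc20, Cdkn3, Ccne1, Nusap1, Birc5, Mcm2, Mcm6, Plk1 and Cenpa, with a median member difference of 0.53 against -0.02 over all genes, and without the filter 9 of 40 rose beside 5.54% of genes, with Top2a added, Mcm2, Mcm6 and Cenpa not called and a median of 0.33 over the 40. Both comparisons use the same 5 tumours, and in whole liver tissue more cycling cells and more RNA per cell cannot be told apart. With 3-month controls 1 and 2 left out 4 members were called (Cdkn3, Ccne1, Mki67 and Prc1), without control 4, the one highest in muscle markers, 9, and the count against 6-month controls was 7 without tumour 3 and 8 without 6-month control 4.

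Among licensing and helicase genes Mcm2 and Mcm6, subunits of the MCM2-7 ring, passed against at least 1 age of control. Mcm2 was at 6.63, 5.47, 6.95, 6.23 and 6.32 in the tumours, against 4.72, 5.50, 5.29, 4.63 and 5.86 in 6-month controls and 4.65, 5.60, 5.54 and 5.17 in 3-month controls. Tumour 2 lay among the controls and the other 4 tumours above them, for a difference of 1.08 ± 0.29 (SE) against 3-month controls (adjusted p = 0.013) and 1.12 ± 0.30 against 6-month controls (adjusted p = 0.0226). Mcm2 was detected in 3 of 4 3-month and 3 of 5 6-month controls, so these sizes rest partly on background signals. Mcm6 was at 7.62, 6.06, 6.92, 6.87 and 7.37 in the tumours, against 5.50, 5.78, 5.86, 6.62 and 4.64 in 6-month controls and 5.81, 6.96, 6.63 and 6.04 in 3-month controls. It rose by 1.28 ± 0.36 against 6-month controls (adjusted p = 0.0271), a call lost under 6 of 18 alternatives, and against 3-month controls, whose values overlap the tumours, the difference of 0.60 did not pass. The 2 other Mcm6 probes that passed the filter, tested on their own, rose against 3-month controls by 1.25 (adjusted p = 0.000296) and 1.35 (adjusted p = 0.00178). Cdt1 and Cdc6, which load the helicase, and Mcm3, Mcm4, Mcm5, Mcm7 and the GINS subunit Gins1 did not pass against either age of control. Another Mcm7 probe gave -1.08 (adjusted p = 0.0217) where the one used gave -0.19 against 3-month controls, so the Mcm7 probes disagree.

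Of the fork and nucleotide genes Tyms, the thymidylate synthase, rose against 3-month controls by 1.24 ± 0.31 (adjusted p = 0.00888). It was at 5.56, 6.94, 7.31, 7.13 and 6.68 in the tumours, against 4.52, 6.51, 6.40, 5.62 and 6.19 in 6-month controls and 5.72, 5.49, 5.58 and 5.15 in 3-month controls. Tumour 1 lay among the controls, and another Tyms probe differed by 0.15 (adjusted p = 0.507), so the probes disagree. Pcna, the sliding clamp, was detected in all 5 tumours at 4.84, 4.86, 4.79, 4.69 and 4.80, against 4.21, 4.98, 4.78, 4.67 and 4.67 in 6-month controls and 4.95, 4.35, 4.77 and 4.36 in 3-month controls. The tumours were the tighter group and the ranges overlap, with a difference of 0.19 ± 0.15 against 3-month controls (adjusted p = 0.359). Rrm1 and Rrm2, the ribonucleotide reductase subunits, and the thymidine kinase Tk1 did not pass on the probes used, Tk1 with differences of -0.71 and -0.87 against controls of 3 and 6 months. A second Rrm2 probe, detected in all 5 tumours and no 3-month control, was called against 3-month controls (adjusted p = 0.0145) and not against 6-month controls (adjusted p = 0.707).

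Neither transcription factor passed. E2f1 was at 7.17, 6.56, 6.63, 7.06 and 7.33 in the tumours, against 6.84, 7.28, 6.52, 7.30 and 7.35 in 6-month controls and 7.14, 7.90, 7.24 and 7.04 in 3-month controls, a difference of -0.38 ± 0.22 against 3-month controls (adjusted p = 0.199). The groups overlap. Foxm1, a factor of G2 and M phase genes, differed by 0.03 and 0.20 from controls of 3 and 6 months.

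Cdkn3, a phosphatase that acts on cyclin-dependent kinases, had the largest difference of the tested members against both control ages. It was at 6.01, 6.19, 7.73, 7.57 and 6.96 in the tumours, against 4.30, 4.87, 4.88, 5.22 and 5.38 in 6-month controls and 4.79, 4.46, 4.66 and 4.97 in 3-month controls. All 5 tumours lay above all 9 controls, by 2.17 ± 0.34 against 3-month controls (adjusted p = 0.000707) and 1.96 ± 0.34 against 6-month controls (adjusted p = 0.00233). Cdkn3 was detected in 2 of 4 3-month and 4 of 5 6-month controls, so these sizes rest partly on background signals. Ccne1, cyclin E1 of S-phase entry, was at 5.49, 5.50, 6.40, 6.16 and 5.61 in the tumours, against 4.55, 4.66, 4.83, 4.76 and 4.87 in 6-month controls and 4.69, 4.26, 4.80 and 4.31 in 3-month controls. It was detected in every tumour and in 2 of the 9 controls, with no overlap, and rose by 1.32 ± 0.22 against 3-month controls (adjusted p = 0.00107) and 1.10 ± 0.20 against 6-month controls (adjusted p = 0.00278). The Ccnb1 probe used was detected in 1 tumour and did not pass, and another that failed the filter was detected in 2.

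Of the mitotic kinases and checkpoint genes Cdc20 and Plk1 passed on the probe used, both against the 6-month controls and neither against the 3-month controls. Cdc20, the activator of the anaphase-promoting complex, was at 6.05, 5.43, 6.45, 6.01 and 5.68 in the tumours, against 4.63, 4.85, 5.00, 4.75 and 4.26 in 6-month controls and 4.56, 5.23, 4.99 and 6.15 in 3-month controls. The tumours did not overlap the 6-month controls (1.22 ± 0.21, adjusted p = 0.00209), but 3-month control 4 was as high as the tumours and the difference of 0.69 ± 0.30 did not pass (adjusted p = 0.0916). Without control 4 it was 0.997 and passed (adjusted p = 0.0127). The Cdc20 probe used was detected in 2 of 5 6-month and 3 of 4 3-month controls, so these sizes rest partly on background signals. Of the 2 other Cdc20 probes tested, 1 was called against 3-month controls (0.63, adjusted p = 0.0239) and neither against 6-month controls (adjusted p = 0.107 and 0.0821). Plk1, the Polo-like kinase, was at 5.31, 4.72, 5.67, 5.47 and 5.05 in the tumours and was detected in none of the 6-month controls, which makes it at least 1.34-fold higher (adjusted p = 0.0317). The 6-month controls read 4.83, 4.52, 4.58, 4.65 and 4.48, and the 3-month controls 4.83, 4.75, 4.91 and 5.37, with 3 of 4 detected and no pass. The Plk1 call is lost under 9 of 18 alternatives, leaving out tumour 1, 3 or 4 or 6-month control 2, 3, 4 or 5 among them. Aurka, Aurkb and Bub1b, the Aurora kinases and a spindle checkpoint kinase, did not pass against either control age. Aurka read 4.35, 4.78, 4.88, 4.85 and 5.44 in 6-month controls and 4.98, 5.02, 5.30 and 4.83 in 3-month controls, and Bub1b 5.26, 5.00, 4.67, 4.67 and 4.93 in 6-month controls and 5.05, 4.91, 5.22 and 5.49 in 3-month controls.

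Prc1, which bundles microtubules of the central spindle, was at 6.68, 5.81, 7.03, 6.43 and 6.73 in the tumours, against 5.44, 4.58, 5.00, 5.13 and 5.12 in 6-month controls and 4.78, 5.17, 5.17 and 5.66 in 3-month controls. No control reached the lowest tumour, and the differences were 1.48 ± 0.23 against 6-month controls (adjusted p = 0.00119) and 1.34 ± 0.25 against 3-month controls (adjusted p = 0.0018). Nusap1, a spindle microtubule protein, was at 5.87, 5.53, 5.77, 5.86 and 5.59 in the tumours, against 4.99, 4.42, 4.97, 5.09 and 4.21 in 6-month controls and 4.36, 4.56, 5.41 and 5.16 in 3-month controls. The tumours lay close together above all controls, by 0.99 ± 0.19 at 6 months (adjusted p = 0.00426) and 0.85 ± 0.21 at 3 months (adjusted p = 0.00899). Nusap1 was detected in 3 of 5 6-month and 2 of 4 3-month controls, and Prc1 in 4 of 5 and 3 of 4. The sizes of both rest partly on background signals. The motor Kif11 and the microtubule-destabilizing Stmn1 did not pass, Stmn1 with detection in 3 of 5 tumours and in no control.

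Mki67, which encodes the proliferation antigen Ki-67, was above background in the tumours and in none of the controls. Of its 3 probes 1 passed the filter, and it read 5.75, 4.90, 5.98, 6.27 and 5.73 in the tumours, against 4.35, 4.38, 4.43, 4.38 and 4.35 in 6-month controls and 4.34, 4.33, 4.37 and 4.57 in 3-month controls. It was detected in 5 of 5 tumours and in 0 of 9 controls, with at least 1.95-fold more signal than 3-month controls (adjusted p = 0.00143) and at least 1.87-fold more than 6-month controls (adjusted p = 0.00151). Birc5, the passenger protein survivin, was at 5.68, 5.40, 6.60, 6.61 and 5.65 in the tumours, against 4.52, 4.97, 4.43, 4.85 and 4.73 in 6-month controls and 4.83, 4.54, 4.80 and 5.00 in 3-month controls. All tumours lay above all controls, by 1.29 ± 0.25 at 6 months (adjusted p = 0.00444) and 1.19 ± 0.26 at 3 months (adjusted p = 0.00468), while the second Birc5 probe differed by 0.40 from 3-month controls and did not pass (adjusted p = 0.173). The Birc5 probe used was detected in 2 of 5 6-month and 3 of 4 3-month controls, so its sizes rest partly on background signals. Cenpa, the histone H3 variant of centromeres, was at 8.44, 8.24, 9.58, 9.06 and 8.77 in the tumours, against 8.36, 7.77, 7.90, 7.94 and 8.17 in 6-month controls and 8.10, 8.39, 8.44 and 8.49 in 3-month controls. It rose against the 6-month controls by 0.79 ± 0.24 with overlap (adjusted p = 0.0384), a call lost under 8 of 18 alternatives. Top2a, the topoisomerase that untangles sister chromatids, was at 4.49, 4.57, 4.98, 4.67 and 4.68 in the tumours, against 4.38, 4.32, 4.36, 4.23 and 4.24 in 6-month controls and 4.44, 4.21, 4.36 and 4.77 in 3-month controls. It was detected in 3 tumours and did not pass against 6-month controls (adjusted p = 0.0733) or 3-month controls (adjusted p = 0.256).

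**Figure D3:**
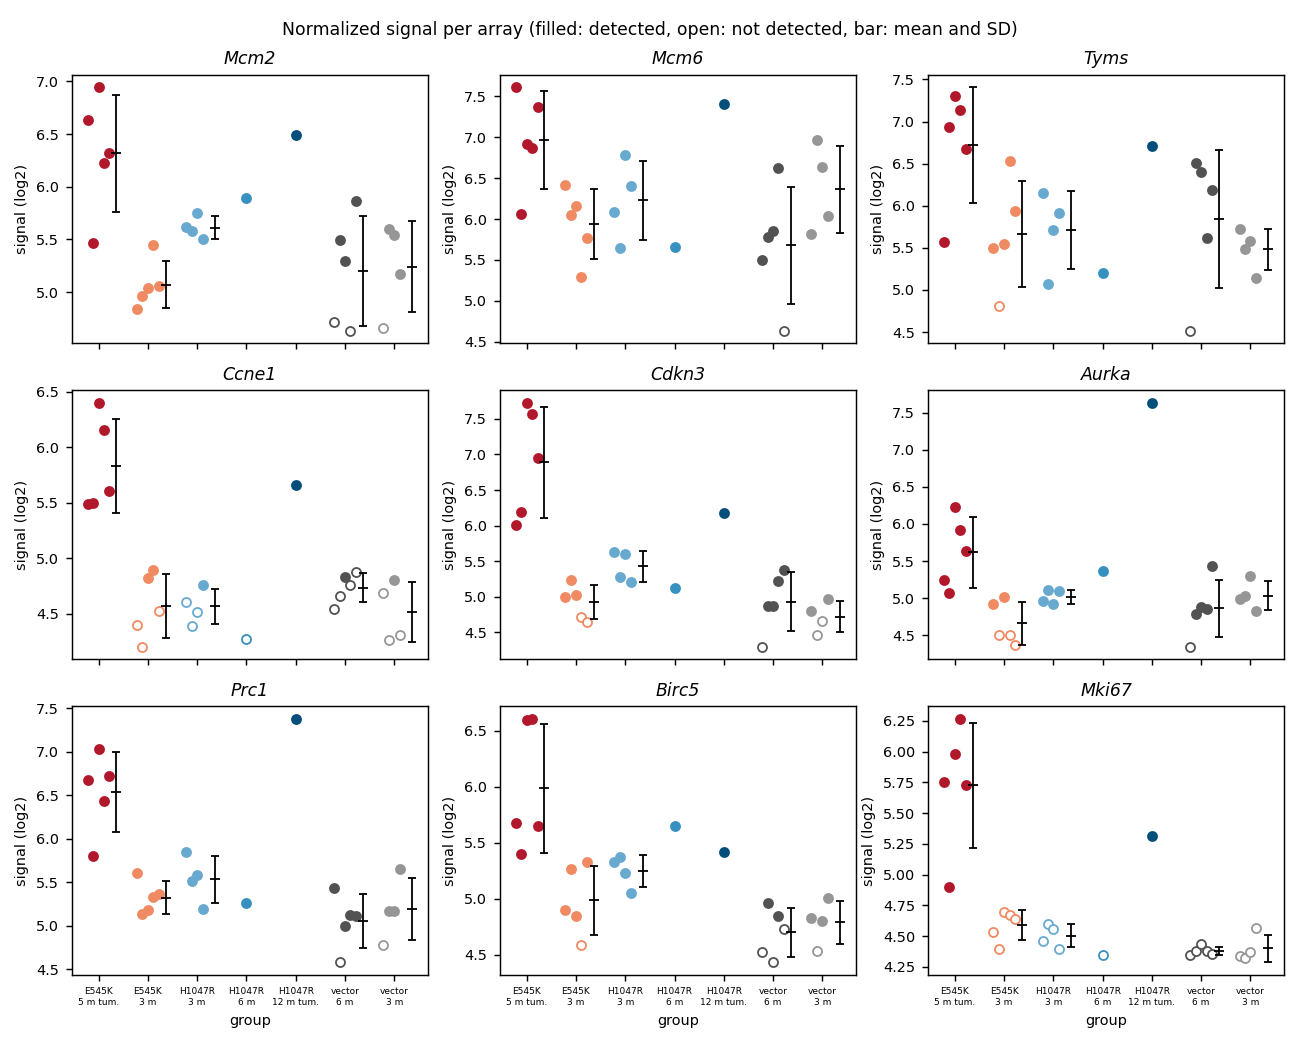
Normalized signal (log2) per array of 9 of the genes by group, with the mean and SD beside groups of 4 or 5; filled points were detected, open points not. For Ccne1, Cdkn3, Prc1, Birc5 and Mki67 the 5 E545K tumours lie above all 9 empty-vector livers, and for Aurka the highest array is the H1047R tumour of 12 months at 7.63.

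The median SD over the 32 members was 0.377 among the tumours and 0.266 over all genes tested, against 0.315 for members and 0.369 for all genes in 6-month controls, and 0.246 and 0.245 in 3-month controls. Tumour 3 had the highest value of the 5 for 16 of the 32 members and tumour 2 the lowest for 20. Of 8 hepatocyte markers tested Apob and Tat were called in the tumours against 3-month controls, 1 higher and 1 lower. Against 6-month controls Tat alone was called, and was lower. Of 8 macrophage markers tested 7 had a positive difference against either control age, and 3 (C1qb, Cd68 and Csf1r) were called higher. The lowest difference among the 8 was -1.20 against 3-month and -0.77 against 6-month controls, with 0 called lower. Cd5l was undetected on every array. The mean log2 signal over 9 macrophage markers was 6.89 to 8.96 in the tumours, against 6.34 to 7.77 in 6-month controls and 6.74 to 7.60 in 3-month controls. It was highest in tumour 1 (8.96) and 7.33 in tumour 3. Neutrophil markers averaged 5.32 to 6.38 in the tumours, against 4.49 to 5.90 in 6-month controls and 4.64 to 5.0 in 3-month controls, with S100a8 and S100a9 called of the 3 tested against 3-month controls and Mpo and Elane undetected in all controls. The erythroid gene Slc4a1 was higher against 3-month controls, and Alas2 was lower against either control age. The biliary marker Sox9 was higher against either control age. Of 5 stellate markers Col1a1 and Col3a1 were higher against 6-month controls and Des and Lrat lower against 3-month controls. Endothelial Stab2 was lower and the B cell marker Cd79b higher against 3-month controls. Of the T cell markers Cd4 and Cd8a were undetected in all tumours and controls. The part of these cells in the results was not tested.

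The second comparison asks what separates E545K tumours from the preneoplastic E545K livers of 3 months. Here 13 members rose (40.6% of the 32, beside 19.9% of all genes tested) and 1 fell, beside 20.8% of genes that fell and 40.8% that changed either way. In 10 members (31.2%) the tumours lay wholly above, beside 11.9% of all genes, and in Gins1 wholly below, beside 11.5%. An unadjusted p under 0.05 was found for 20 of the 32 members, beside 49.6% of all genes. The median difference was 0.42 for members and -0.03 for all genes, and without the filter 13 of 40 rose and 1 fell beside 10.2% of genes that rose, with a median of 0.29 over the 40. Of the 9 licensing genes Mcm2, Mcm4, Mcm5, Mcm6 and Cdc6 rose and Gins1 fell. Cdkn3, Ccne1, Prc1, Mki67, Birc5, Tyms, Aurka and Bub1b were the others.

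In E545K livers of 3 months Mcm2 was at 4.84, 4.96, 5.04, 5.44 and 5.06, all below the lowest tumour, and the tumours were higher by 1.25 ± 0.24 (adjusted p = 0.00203). Mcm4 was at 7.87, 7.24, 8.29, 8.05 and 8.44 in the tumours and 7.35, 6.90, 7.26, 7.50 and 7.26 in E545K livers of 3 months, and rose by 0.72 ± 0.21 (adjusted p = 0.0187). Mcm5 was at 7.11, 6.09, 7.15, 6.51 and 7.13 in the tumours and 6.12, 6.25, 6.26, 6.04 and 6.46 in E545K livers of 3 months, and rose by 0.57 ± 0.21 (adjusted p = 0.0463). In both genes tumour 2 lay within the younger livers. Controls of 6 months read 6.91, 7.88, 7.62, 7.16 and 7.23 for Mcm4 and 5.58, 6.16, 5.77, 6.38 and 6.5 for Mcm5, and controls of 3 months 7.20, 7.42, 7.90 and 7.05 for Mcm4 and 6.28, 6.90, 6.25 and 6.08 for Mcm5. The Mcm5 call was lost under 12 of 18 alternatives. Mcm6 was at 6.41, 6.05, 6.16, 5.29 and 5.76 at 3 months and was 1.03 ± 0.29 higher in the tumours (adjusted p = 0.0142). Cdc6 was detected in 2 of 5 tumours (4.73 and 5.18) and in none of the younger livers, where it read 4.25 to 4.43, and its adjusted p of 0.0425, lost under 9 of 17 alternatives, comes with no usable fold. Gins1, by contrast, was at 5.62, 5.73, 5.71, 5.42 and 5.17 in the tumours and 5.89, 5.86, 6.28, 6.33 and 6.13 in E545K livers of 3 months, with no overlap, and fell by 0.57 ± 0.15 (adjusted p = 0.0118). Gins1 controls spread from 5.05 to 6.53 at 6 months and from 5.50 to 6.25 at 3 months.

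Among mitotic genes Aurka was at 5.24, 5.06, 6.23, 5.91 and 5.63 in the tumours and 4.92, 4.50, 5.02, 4.51 and 4.36 in E545K livers of 3 months, and rose by 0.95 ± 0.23 with no overlap (adjusted p = 0.00652). It was detected in 2 of these 5 younger livers, so the size rests partly on background signals. Bub1b, the checkpoint kinase BubR1, was at 5.72, 5.09, 5.64, 5.34 and 5.38 in the tumours and 4.94, 4.94, 4.98, 5.03 and 5.01 in the younger livers, a rise of 0.46 ± 0.14 (adjusted p = 0.0198). Prc1 read 5.61, 5.13, 5.18, 5.33 and 5.37 at 3 months and was 1.21 ± 0.21 higher in the tumours (adjusted p = 0.000994). Cdkn3 read 5.00, 5.23, 5.03, 4.72 and 4.64 and was 1.97 ± 0.32 higher in the tumours (adjusted p = 0.000653). For these genes no E545K liver of 3 months reached the lowest tumour. Ccne1 at 4.40, 4.20, 4.82, 4.89 and 4.53 and Birc5 at 4.90, 5.26, 4.85, 4.59 and 5.33 lay below all tumours too, by 1.26 ± 0.21 (adjusted p = 0.000859) and 0.9996 ± 0.26 (adjusted p = 0.00976). Ccne1 was detected in 2 of the 5 younger livers, Cdkn3 in 3 and Birc5 in 4, so their sizes too rest partly on background signals. Mki67 was undetected in all 5 younger livers, and the tumours were at least 1.93-fold higher (adjusted p = 0.00186). Tyms, at 5.50, 4.81, 5.54, 6.53 and 5.93 in the younger livers, rose by 1.06 ± 0.36 with overlapping values (adjusted p = 0.033), a call lost under 8 of 18 alternatives. Nusap1, at 5.50, 5.73, 5.14, 4.71 and 5.10, differed by 0.49 and did not pass (adjusted p = 0.0516). Cdc20, at 5.42, 5.27, 5.83, 5.20 and 5.44, differed by 0.49 and did not pass either (adjusted p = 0.0638), though the 2 other Cdc20 probes that passed the filter were called at 0.67 (adjusted p = 0.0269) and 0.52 (adjusted p = 0.0201). Pcna was detected in 1 of the 5 younger livers and Top2a in none. Among macrophage markers 4 of the 8 tested (Cd68, C1qb, Csf1r and C1qa) were higher in this contrast too, at a mean of 6.89 to 8.96 in the tumours and 6.39 to 7.07 in the younger livers. Neutrophil S100a8 and S100a9, biliary Sox9, stellate Col3a1 and erythroid Slc4a1 were higher, and Alas2, stellate Lrat and endothelial Stab2 and Clec4g lower. The part of these markers was not tested.

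**Figure D4:**
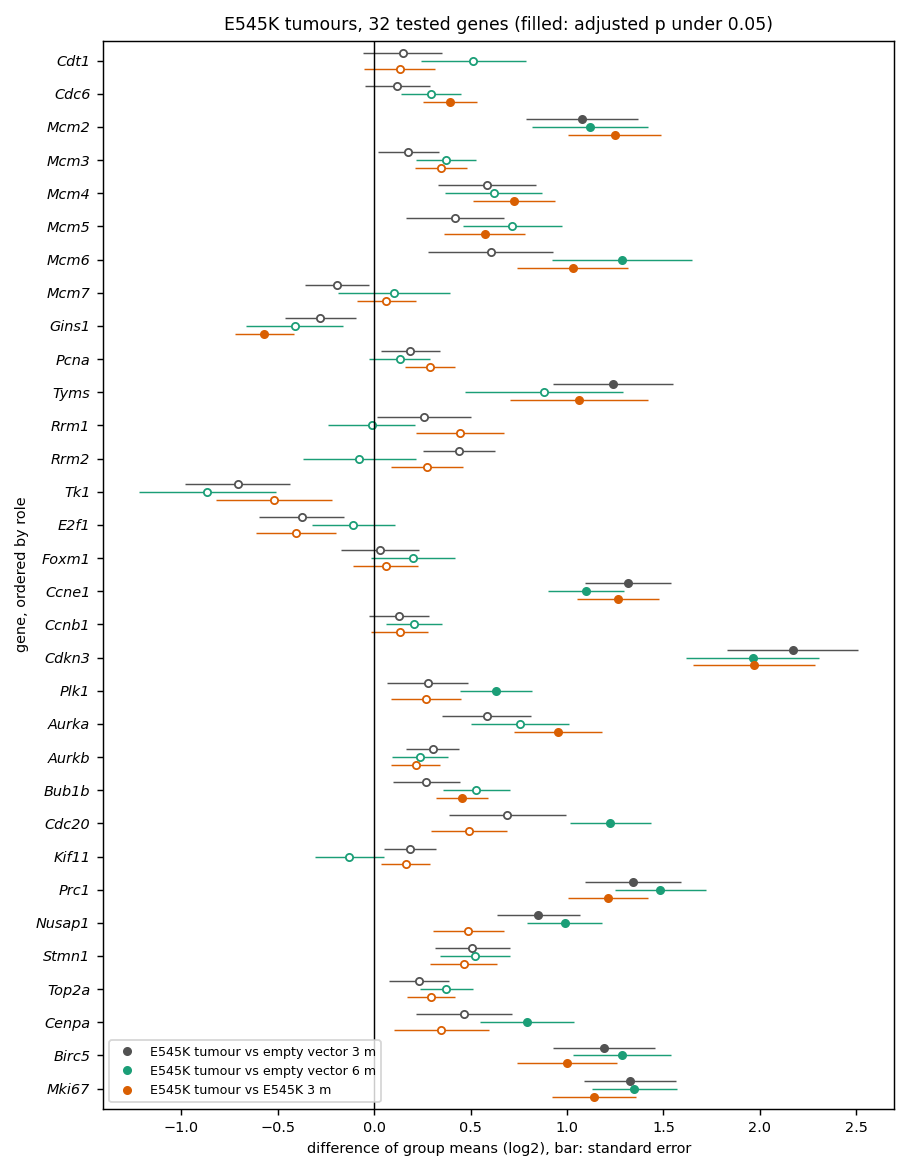
Difference of group means (log2, with standard error) of the 32 tested genes between the E545K tumours and 3 groups: 3-month empty-vector livers, 6-month empty-vector livers and 3-month E545K livers; filled points have an adjusted p under 0.05. Cdkn3 lies near 2 in all 3, and Gins1 and Tk1 lie below 0 in all 3. Points of genes not detected in a group, Mki67 in all 3 and Plk1 in 6-month livers among them, show no size of difference.

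Both series of livers span an interval of age, though a different one, and the step of the E545K livers (5 against 3 months) was tested against that of the empty-vector livers (6 against 3 months). The steps differed for 9 of the 32 members, all higher in the E545K series, which is 28.1% of members beside 7.59% of all genes tested that were higher, 4.97% lower and 12.6% either way. Mcm6 stepped by 1.03 in the E545K livers and by -0.68 in the controls, Cdkn3 by 1.97 and 0.21, and Prc1 by 1.21 and -0.14. The 2 other Mcm6 probes that passed the filter averaged 5.33 and 4.65 in 3-month controls. In 6-month controls they averaged 5.10 and 4.77, so the size of the control fall rests on the probe used. Mki67 was detected in the tumours and in none of the E545K livers of 3 months or the controls of either age, so its E545K step is known only as at least 1.93-fold and its control step not at all. Mcm2, Birc5, Aurka, Ccne1 and Bub1b were the others, with differences between the steps of 0.71 to 1.29. Of 28 alternatives the call was lost under 14 for Mcm2, 14 for Bub1b, 13 for Birc5, 6 for Mcm6, 4 for Aurka and 3 for Ccne1. Without the filter 7 of 40 members differed beside 3.94% of genes. The count was 4 without 3-month control 3, 5 without tumour 3, 5 without 3-month controls 1 and 2, 6 without 3-month control 4, 7 without 6-month control 4 and 14 without tumour 2. Mki67, Prc1 and Cdkn3 were called in each of the first 3 of these.

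**Figure D5:**
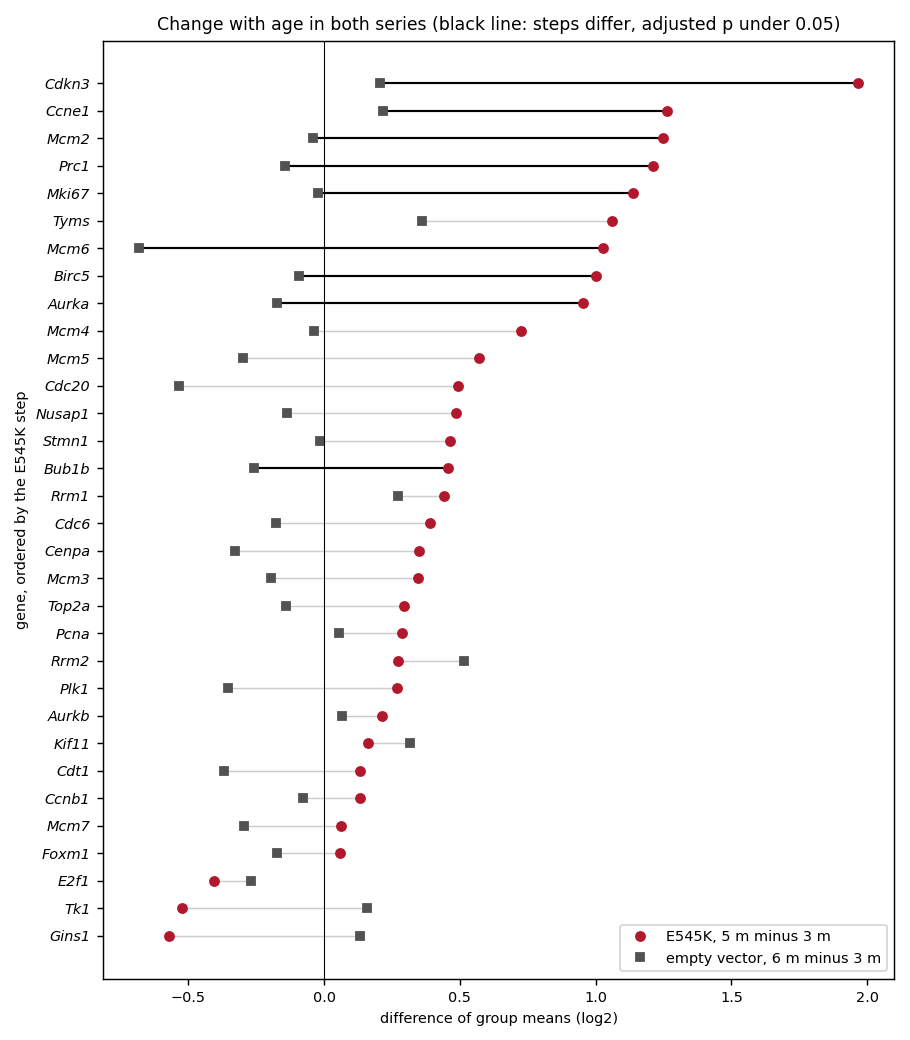
Difference of group means (log2) of the 32 tested genes between ages, in E545K livers (5 minus 3 months, circles) and in empty-vector livers (6 minus 3 months, squares), ordered by the E545K step; black lines join the 9 genes whose steps differ at an adjusted p under 0.05. Cdkn3 is at the top with 1.97 and 0.21, and the lowest square is Mcm6 at -0.68 on the probe used. The Mki67 points rest on groups at background and show no size of step.

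At 3 months no member was called in the livers of either mutation. In E545K livers against 3-month controls 0 of 32 passed limma's test, beside 0.00863% of genes. None had an unadjusted p under 0.05, beside 4.62% of genes, and the median difference was 0.01. Only for Cdc6, undetected in all 5 E545K livers and in 3 of 4 controls, did the groups not overlap, being lower, beside 0.957% of genes. The 3 members of smallest p, Aurka (-0.37 ± 0.17), Cdc6, whose signals at background give no fold, and Mcm7 (-0.26 ± 0.14), did not pass at unadjusted p of 0.0558, 0.0672 and 0.0895. Mcm7 turned to 0.03 without background correction or with the authors' processed values. In H1047R livers against 3-month controls 0 of 32 passed, beside 0% of genes, and 2 had an unadjusted p under 0.05, beside 7% of genes. Cdkn3 was at 5.62, 5.28, 5.60 and 5.20 in H1047R livers, against 4.79, 4.46, 4.66 and 4.97 in 3-month controls, and Birc5 at 5.33, 5.37, 5.23 and 5.05 in H1047R livers, against 4.83, 4.54, 4.80 and 5.00 in 3-month controls. Every H1047R liver lay above every 3-month control for both genes (2 of 32, or 6.25%, beside 1.85% of all genes that lay higher and 1.94% lower), but neither Cdkn3 (0.70 ± 0.16, adjusted p = 0.428) nor Birc5 (0.45 ± 0.14, adjusted p = 0.601) passed. Mcm2 was next with 0.37 ± 0.20 (adjusted p = 0.739). The count was 0 also without H1047R liver 2 and without 3-month control 4, the arrays highest in muscle markers.

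The other members named above did not pass in H1047R livers of 3 months either. Ccne1 read 4.60, 4.38, 4.51 and 4.76, detected in 1 liver, and Mki67 read 4.46, 4.60, 4.56 and 4.39 with none detected. Prc1 was at 5.85, 5.51, 5.59 and 5.19, Nusap1 at 4.92, 4.63, 5.38 and 5.45 and Aurka at 4.96, 5.10, 4.92 and 5.09. These ranges overlap those of the 3-month controls. Cdc20 was at 5.92, 6.09, 6.20 and 5.08, Plk1 at 5.11, 5.37, 4.76 and 4.76 and Bub1b at 5.00, 5.40, 5.12 and 5.17. Cenpa read 8.55, 8.59, 8.54 and 8.24, and Tyms 6.16, 5.08, 5.71 and 5.92. Cenpa in liver 4 was the low value of its group. In the helicase Mcm4 was at 7.86, 7.10, 7.63 and 7.79, Mcm5 at 6.20, 5.96, 6.09 and 6.20 and Mcm6 at 6.09, 5.64, 6.78 and 6.41. Gins1 was at 5.34, 5.05, 5.54 and 6.08, and Pcna, Cdc6 and Top2a were detected in none of the 4 livers.

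Set directly against H1047R livers of the same age, E545K livers of 3 months had 0 members called, beside 0% of genes. Of the 32 tested members 6 had an unadjusted p under 0.05, beside 6.15% of genes. Mcm2 was at 4.84, 4.96, 5.04, 5.44 and 5.06 in E545K livers and 5.61, 5.58, 5.75 and 5.50 in H1047R livers, and Mcm7 at 5.38, 5.83, 5.65, 5.45 and 5.56 in E545K livers and 6.22, 5.88, 6.01 and 6.10 in H1047R livers. The E545K livers lay wholly below for these 2 of the 32 tested members, beside 1.33% of all genes lower and 0.94% higher. Yet the differences of -0.54 ± 0.14 and -0.48 ± 0.14 did not pass (adjusted p = 0.671 each). That of Mcm7 turned to 0.10 without background correction or with the authors' processed values. The other Mcm7 probe that passed the filter averaged 6.13 in E545K livers and 5.98 in H1047R livers, the opposite direction. Cdkn3 came next with -0.50 ± 0.16 (adjusted p = 0.71). Controls of 6 against 3 months had 0 members called too, beside 0.0173% of genes in either direction, and 0 with an unadjusted p under 0.05, beside 10.7% of genes. The groups overlapped for every tested member, beside 1.28% of genes wholly higher and 2.08% wholly lower, with a median of -0.11 and Plk1, Cenpa (-0.33 ± 0.17) and Mcm6 (-0.68 ± 0.37) of smallest p. Plk1 was detected in no control of 6 months and in 3 of 4 of 3 months and has no fold here. These 4 counts were 0 under every alternative run.

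The 2 late H1047R samples, a preneoplastic liver and a tumour, were tested as a group against the 6-month controls. No control of 12 months was analysed here, so age and tumour cannot be told apart in the sample of 12 months. No member passed, beside 0.0345% of genes that rose and 0.0431% that changed either way. Of the 32 tested members 7 had an unadjusted p under 0.05, beside 8.94% of genes. Cdc20 was at 5.98 in the liver of 6 months and 6.01 in the tumour of 12 months, against 4.26 to 5.0 in the controls, a difference of 1.30 ± 0.27 (adjusted p = 0.33). Plk1 at 5.70 and 5.29 and Birc5 at 5.65 and 5.42 also lay above all 6-month controls and did not pass (adjusted p = 0.364 and 0.393). In all 9 of 32 members (28.1%) lay above the controls in both samples, beside 7.16% of all genes, and Kif11, undetected in both samples, lay below them, beside 4.54%. The count called was 0 also without 6-month control 4.

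The 2 samples are also given singly, with no test. The H1047R tumour of 12 months had 24 of 32 tested members above the range of the 6-month controls and 2 below, beside 24.9% of genes above and 23.4% below. The H1047R liver of 6 months had 10 above and 2 below, beside 23.3% and 18.4% of genes. In the tumour of 12 months Aurka read 7.63, above the 5.06 to 6.23 of the E545K tumours, and 5.36 in the liver of 6 months. Prc1 read 7.38 against 5.26 in the liver of 6 months, Mcm4 8.88 against 7.02, and Mcm6 7.40 against 5.66. Ccne1 (5.66), Mki67 (5.31) and Cdkn3 (6.18) were within the range of the E545K tumours and above all controls, whereas the liver of 6 months had Ccne1 at 4.27 and Mki67 at 4.35, both undetected. Nusap1 at 5.13 was below every E545K tumour. With the liver of 6 months left out, and the lone tumour assumed to vary like the controls, Aurka (2.77 ± 0.40, adjusted p = 0.00727) and Prc1 (2.33 ± 0.36, adjusted p = 0.00885) were called. In this tumour biliary markers averaged 6.58 and stellate markers 7.0, against 5.45 to 5.98 for biliary and 5.11 to 5.62 for stellate markers in 6-month controls, and their part in these values was not tested.

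Another 2 lists of genes of the same processes were counted for the E545K tumours, with the 4 of smallest p against 3-month controls named. Of 51 other mitosis genes 27 were tested. Against 3-month controls 9 rose and 1 fell, beside 19.5% and 21% of all genes, with a median difference of 0.27. Against 6-month controls 7 rose and 1 fell, beside 11% and 8.93%, and against E545K livers of 3 months 11 rose and 1 fell, beside 19.9% and 20.8%. Spc25, a subunit of the kinetochore complex NDC80, rose by 1.06 ± 0.22 (adjusted p = 0.00314), Incenp of the passenger complex by 0.81 ± 0.17 (adjusted p = 0.00322) and the checkpoint gene Mad2l1 by 1.15 ± 0.25 (adjusted p = 0.0045). Spc24, the partner of Spc25, fell by 0.88 ± 0.19 (adjusted p = 0.00374), at a mean of 6.74 in the tumours against 7.62 in 3-month controls. Cdk1, the mitotic kinase itself, chosen after its value was seen, was detected in 4 of 5 tumours and no 3-month control, with at least 1.34-fold more signal in the tumours (adjusted p = 0.0173).

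Of 48 other replication genes 36 were tested. Against 3-month controls 6 rose and 7 fell, beside 19.5% and 21% of all genes, with a median difference of 0.08. Against 6-month controls 4 rose and 4 fell, beside 11% and 8.93%, and against E545K livers of 3 months 5 rose and 6 fell, beside 19.9% and 20.8%. These counts are near the background. The 4 of smallest p all fell. Mcm10 differed by -3.05 ± 0.36 (adjusted p = 0.000122) and the clamp loader subunit Rfc5 by -1.30 ± 0.17 (adjusted p = 0.000211). The dUTPase Dut differed by -0.97 ± 0.14 (adjusted p = 0.000461) and the single-strand binding protein Rpa1 by -0.73 ± 0.14 (adjusted p = 0.0024). Mcm10 acts in the start of replication, yet its probe averaged 9.11 in the tumours and 12.2 in 3-month controls, and of its 2 other probes 1 was detected on all 25 arrays and 1 on none, so which transcripts these probes read is not settled here. Uhrf1, which guides maintenance methylation of new DNA and was chosen after its value was seen, rose by 1.93 ± 0.39 (adjusted p = 0.00301).

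The authors' deposited table that carries the names of E545K tumours and 3-month controls holds other differences than its name says. Its log2 differences, in the authors' deposited table, correlate across 45281 probes at 0.9998 with tumours minus 6-month controls as computed here and at 0.886 with tumours minus 3-month controls, whereas the authors' 3 other tables match their names at 0.9996 to 0.9997. Read as a comparison with 6-month controls, the authors' deposited table called 18 of the 40 members higher through 21 of 78 probes and none lower, beside 5.3% of all probes higher. In the authors' deposited table Mki67 differed by 1.41 (adjusted p = 3.99e-06), Prc1 by 1.51 (adjusted p = 3.94e-05) and Cdkn3 by 2.00 (adjusted p = 4.60e-05). Mcm3, Mcm5, Ccnb1, Aurka, Bub1b, Stmn1 and Top2a were called in the authors' deposited table and not in the fit described above. The authors' deposited tables of the other 3 comparisons called no member and no probe.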

How the data were processed

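Whole-liver RNA of 25 samples was read on Illumina bead arrays. Per the file headers, the authors deposited non-normalized probe intensities with a detection p-value per probe and array, and, per the file names and headers, limma tables of log2 differences with p-values, whose limma version is not stated in the sources used here. The authors' processed intensities, made alike between arrays, served as an alternative.

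From the deposited intensities, neqc in limma 3.58.1 (R 4.3.3) corrected background (estimated from detection p-values, offset 16), quantile-normalized and took log2. Of 45281 probes 20349 were detected (p under 0.05) on at least 4 of 25 arrays. The probe of highest mean stood for each gene, giving 11594 genes. Symbols were updated through RefSeq for 658 probes, and 11503 probes had none. lmFit and eBayes were run on the arrays of each comparison, with Benjamini-Hochberg adjustment over all genes and calls at an adjusted p under 0.05. "At least" folds set the brighter mean against the lowest detected signal. The number of arrays limits the precision. The procedure was tested on simulated data.

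The member genes and the lists were chosen with earlier results of these data known. Named with values were members called in any tumour comparison, Mki67, Top2a and Pcna, the member of smallest p in roles without a call and, elsewhere, the 3 of smallest p. The sample labels do not say whether the replicate numbers pair the samples, and the main fits did not use them. Alternatives covered background, filter, probes, fit, block and arrays left out.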

Additional observations from a re-analysis of the deposited data

Results flagged for a closer look

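In 2 of 110 groups of 4 or 5 arrays examined over 22 genes, 1 array stood far from the rest of its group, where chance alone gives about 5.5. Cenpa read 8.24 in H1047R 3-month liver 4, against 8.54 to 8.59 in the other 3 livers. Mcm7 read 4.35, below background, in 6-month control 5, against 5.67 to 5.98 in the other 4 controls.

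For 9 genes the step in E545K livers (5 minus 3 months) differed from the step in empty-vector livers (6 minus 3 months) in limma's test of the difference itself. The differences between the steps, with the SE and the adjusted p, were 1.76 ± 0.41 for Cdkn3 (adjusted p = 0.00793), 1.71 ± 0.49 for Mcm6 (adjusted p = 0.0261) and 1.36 ± 0.31 for Prc1 (adjusted p = 0.00638). They were 1.29 ± 0.39 for Mcm2 (adjusted p = 0.0356) and 1.12 ± 0.32 for Aurka (adjusted p = 0.0262). Birc5 had 1.09 ± 0.32 (adjusted p = 0.0315), Ccne1 1.05 ± 0.28 (adjusted p = 0.0162) and Bub1b 0.71 ± 0.22 (adjusted p = 0.0372). The fitted value for Mki67 was 1.16 (adjusted p = 0.00576), but it was detected in the tumours alone of these 4 groups, so that value rests on background signal and gives no size. The Mcm2, Bub1b and Birc5 calls were lost under 14, 14 and 13 of 28 alternatives. The Mcm6 value includes a control fall that its other probes passing the filter did not show at that size. The intervals of age are not equal.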

How the results depend on the processing

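Counts of members called in either direction moved by over 1.5 times under some settings. Against 3-month controls (8) the count was 4 with controls 1 and 2 left out. Against 6-month controls (11) it was 19 with all 25 arrays in a single fit. In the late H1047R comparison (0) it was 5 in that fit. For the difference of age steps (9) it was 5 with controls 1 and 2 left out. Leaving out 1 array at a time moved some counts that far too, against 6-month controls, for late H1047R and for the age steps. It gave 8 to 12 against 3-month controls, 7 to 16 against 6-month controls, 10 to 17 against E545K 3-month livers (14), 0 to 2 for late H1047R and 4 to 14 for the age steps, and 0 in the other 4 comparisons. Mcm7 reversed in E545K 3-month livers. Against 3-month controls it turned to 0.0320 without background correction and 0.0330 with the authors' processed values. Against H1047R 3-month livers it turned to 0.10 under both. Both settings chose the probe of highest mean anew, and the 2 Mcm7 probes that passed the filter averaged 5.68 and 5.66 in the main values. The one not used averaged 6.13 in E545K 3-month livers, 6.07 in 3-month controls and 5.98 in H1047R 3-month livers. Whether the probe changed was not tested. Of 1631 values for 87 named results, 1472 kept direction and side of the threshold, 114 lost the call, 41 gained one and 4 reversed. With the replicate number as a block the counts were 8, 13 and 14 for the tumours against 3-month controls, 6-month controls and E545K 3-month livers, 6 for the age steps and 0 elsewhere. Deviations of same-numbered samples correlated at -0.306 to 0.462, over 0.1 in 10 of 30 pairs. Signals near background limit the folds of dim members.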
